A study of Rattus norvegicus with 4 samples.

Results

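Voltage-gated calcium channel subunits were examined in rat insulinoma cells grown as a flat monolayer or bioprinted in a hydrogel. The 10 genes were taken as a fixed list by symbol: the pore-forming alpha-1 genes Cacna1a, Cacna1c, Cacna1d, Cacna1e and Cacna1h, the cytoplasmic beta genes Cacnb1, Cacnb2 and Cacnb3, and the alpha-2/delta genes Cacna2d1 and Cacna2d2. They are 10 of the 23360 gene symbols listed, and each of the 10 had an entry. The rule used symbols and no measured value, but the list was drawn up with earlier results of these data known.

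All 4 samples were INS-1 832/3 cells, a rat beta-cell line that carries a human insulin gene and was kept in Geneticin. The 2D group held 2 samples of standard monolayer culture and the 3D group held 2 samples bioprinted in GelXA LAMININK 411, a gelatin methacrylate hydrogel with a laminin. Messenger RNA was sequenced after 5 days in culture at passage 3. The labels call the samples of a group biological replicates of 1 line and do not say more about their origin, so the p-values below measure the spread between these samples alone.

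Calcium entry through voltage-gated channels is the trigger for insulin granule exocytosis in the beta cell: glucose metabolism closes potassium channels, the membrane depolarizes, and calcium channels open. Each channel is built on an alpha-1 subunit, which forms the pore and the voltage sensor and sets the current type. Beta subunits bind the channel from the cytoplasm and bring it to the membrane, and alpha-2/delta subunits are extracellular and raise the number of channels at the surface. Among the alpha-1 genes, Cacna1c and Cacna1d encode L-type channels, Cacna1a the P/Q-type, Cacna1b the N-type, Cacna1e the R-type, and Cacna1g and Cacna1h the low-voltage-activated T-type.

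Values are TPM, the share of a transcript in its sample corrected for transcript length and scaled so that each sample sums to 1000000, here summed over the transcripts of a symbol. With length corrected, levels of different genes can be compared. Between 19355 and 19959 transcripts were above 0 in a sample. All 10 beta-cell markers examined, among them Ins1, Pdx1 and Mafa, had a mean TPM of at least 1, and their summed level was 147261 to 160219 TPM in 2D and 157485 to 170148 TPM in 3D, most of it Ins1. Of the 10, 5 had a positive and 5 a negative log2 fold change. Ins2 was lower in 3D, at 13237 and 13340 TPM in 2D and 8957 and 9326 TPM in 3D (log2 fold change -0.58, limma adjusted p = 0.00946), and the glucose transporter Slc2a2 was higher, at 491 and 454 TPM in 2D and 626 and 654 TPM in 3D (0.39, limma adjusted p = 0.00746). Of the markers of other islet cells 1 of 5 had a mean of at least 1 TPM, glucagon (Gcg), at 41.9 and 73.8 TPM in 2D and 124 and 155 TPM in 3D, and the summed level of the 5 was 42.2 to 74.4 TPM in 2D and 125 to 156 TPM in 3D, with Ghrl at 0. The 3 endothelial markers with an entry summed to 0.973 to 1.01 TPM in 2D and 1.27 to 1.49 TPM in 3D, with Cdh5 at 0, and the 4 fibroblast markers with an entry summed to at most 0.0198 TPM, with Pdgfrb, Dcn and Lum at 0. Mitochondrial genes took 9.35% and 10.1% of TPM in 2D and 12.3% and 13.0% in 3D. The part of these differences in the results below was not tested. In such bulk samples, fewer cells of a type and less RNA per cell cannot be told apart.

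The start regions of 3 subunits are shown because they represent the 3 roles and differ in the comparison described further on: Cacna2d1 rose in 3D, while Cacnb3 and Cacna1c did not pass the test. Each sequence is the 250 bases upstream of a RefSeq gene start in the GRCr8 build, written 5′ to 3′ on the strand of the gene. For Cacna2d1, which has more than 1 listed start, the first was taken, at chr4:20330148-20330397 on the minus strand. The Cacnb3 window lies at chr7:131666301-131666550 on the plus strand and the Cacna1c window at chr4:154051749-154051998 on the minus strand. Capitals mark GC boxes, GGGCGG or its reverse complement CCGCCC, including matches that overlap.
Cacna2d1: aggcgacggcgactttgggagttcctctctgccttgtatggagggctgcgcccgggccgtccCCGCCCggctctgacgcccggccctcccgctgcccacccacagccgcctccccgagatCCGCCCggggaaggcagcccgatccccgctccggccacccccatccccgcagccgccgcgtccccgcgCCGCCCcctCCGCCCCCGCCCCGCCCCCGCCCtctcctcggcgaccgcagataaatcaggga
Cacnb3: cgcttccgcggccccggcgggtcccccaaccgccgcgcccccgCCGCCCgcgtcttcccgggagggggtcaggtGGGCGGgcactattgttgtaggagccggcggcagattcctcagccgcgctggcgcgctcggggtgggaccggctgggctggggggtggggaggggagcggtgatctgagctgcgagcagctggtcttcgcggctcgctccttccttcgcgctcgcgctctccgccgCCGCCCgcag
Cacna1c: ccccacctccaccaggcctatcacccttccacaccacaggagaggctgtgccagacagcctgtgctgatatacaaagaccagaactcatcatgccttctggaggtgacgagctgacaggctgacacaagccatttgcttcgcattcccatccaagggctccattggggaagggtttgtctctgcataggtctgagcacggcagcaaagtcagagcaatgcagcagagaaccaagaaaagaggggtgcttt
The Cacna2d1 window held 7 GC boxes and 77.2% G or C, the Cacnb3 window held 3 and 76.4%, and the Cacna1c window held 0 and 54.4%. Over all 33469 windows of this length the median was 51.2% G or C, and 30.5% of windows held a GC box. Windows were found for 8 of the 10 genes, all but Cacna1h and Cacnb1. Among those not shown, the windows of Cacna1a, Cacna2d2 and Cacna1d, which also rose in 3D, held 1, 2 and 9 GC boxes. The other Cacna2d1 windows held 3 each, those of Cacnb2 held 2 and 0, and that of Cacna1e held 0. A link between GC boxes and the change in expression was not tested. The cAMP response element TGACGTCA, present in 1.59% of all windows, and the E-box CACGTG, present in 5.59%, were searched on both strands and matched no window of these genes. A match is a run of letters and says nothing about binding.

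The 10 genes spanned a wide range of levels and held the same order in both cultures. Cacnb3, a beta subunit known from neurons and endocrine cells, was the highest, at a mean of 147 ± 4.56 TPM in 2D and 166 ± 3.75 TPM in 3D (SD, n = 2 each). Below it came Cacna2d1, Cacna1a, Cacna1h, Cacna1d, Cacnb2, Cacnb1, Cacna1c, Cacna2d2 and Cacna1e. Neighbours whose samples overlapped were Cacna2d1 and Cacna1a in both cultures, Cacna1h and Cacna1d in 2D, and Cacnb1 and Cacna1c in 3D. Cacna1e was close to 0, at 0.0514 and 0.0308 TPM in 2D and 0.0421 and 0.0422 TPM in 3D, and was not tested.

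**Figure D1:**
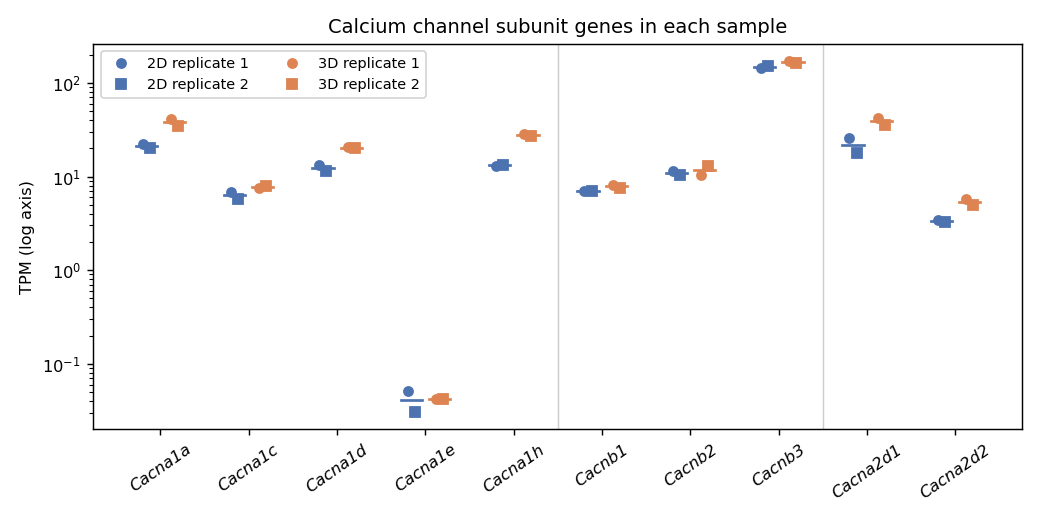
TPM of each subunit gene in each sample, on a log axis, with 2D and 3D samples as points and the group means as lines. Cacnb3 lies far above the rest in all 4 samples and Cacna1e far below, and the 3D points of Cacna1h, at 28.7 and 27.1 TPM, lie clear of its 2D points at 13.0 and 13.4 TPM.

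Expression was compared between 3D and 2D to ask whether channel transcripts differed between bioprinted and monolayer cells. Of the 10 genes, 9 had a mean of at least 1 TPM and were tested with limma on log2(TPM + 1), where fold changes of low genes are understated. At a Benjamini-Hochberg adjusted p below 0.05 over all 11960 genes tested, 5 of the 9 were higher in 3D and 0 were lower, against 18.5% of all genes tested that were higher and 19.5% that were lower. The 5 were Cacna1h, Cacna1a, Cacna1d, Cacna2d1 and Cacna2d2. At an unadjusted p below 0.05, 6 of the 9 passed, again all higher, against 6057 of the 11960 genes tested in either direction. The median log2 fold change of the 9 was 0.51 and that of all genes tested was -0.0031. Both 3D samples lay above both 2D samples for 8 of the 9, against 37.3% of all genes tested. The calls did not hold without 3D replicate 1. That fit leaves 1 sample in a group, and most calls over all genes were lost in it too. All 9 log2 fold changes were positive then, from 0.047 for Cacnb1 to 0.94 for Cacna1h. Fewer of the 9 passed without 3D replicate 2 or without 2D replicate 2, and so did fewer of all genes. Without 3D replicate 2 the log2 fold changes ran from -0.082 for Cacnb2 to 1.04 for Cacna1h.

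Of the 4 pore-forming subunits tested, 3 rose. Cacna1h, the T-type subunit that opens near the resting potential, stood at 13.0 and 13.4 TPM in the 2D samples and at 28.7 and 27.1 TPM in the 3D samples. Samples of a culture lay close together and the groups did not overlap. The ratio of the means was 2.12, and the log2 fold change was 0.99 (SE 0.075, limma adjusted p = 0.00357). Without 3D replicate 1 it was 0.94 with an adjusted p of 0.0512 in limma.

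Cacna1a, the P/Q-type subunit that couples to exocytosis in nerve terminals and contributes to it in beta cells, had 22.3 and 20.4 TPM in 2D and 41.0 and 34.7 TPM in 3D. The 3D samples were both higher and also further apart from each other than the 2D samples. The means differed 1.78-fold, with a log2 fold change of 0.76 (SE 0.096, limma adjusted p = 0.00595, and 0.0574 without 3D replicate 1).

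Cacna1d, an L-type subunit and a main calcium entry route of the beta cell, was measured at 13.4 and 11.4 TPM in 2D and at 20.4 and 20.3 TPM in 3D. The 3D samples were nearly equal, and the groups did not overlap. It was 1.64-fold higher, a log2 fold change of 0.63 (SE 0.076, limma adjusted p = 0.00547, and 0.0663 without 3D replicate 1).

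Cacna1c, the other L-type subunit, had 6.83 and 5.75 TPM in 2D and 7.57 and 7.88 TPM in 3D. The 3D samples were both higher. The log2 fold change was 0.23 with a 95% interval of 0.0058 to 0.45 and did not pass after adjustment (limma adjusted p = 0.0925). It passed under none of the 11 other settings tried, where the adjusted p ran from 0.0572 to 0.297.

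None of the 3 beta subunits passed the test in limma. At an unadjusted p below 0.05, 0 of them passed, against 6057 of the 11960 genes tested. Cacnb3, which dominated this class, had 144 and 151 TPM in 2D and 169 and 164 TPM in 3D. The groups did not overlap, yet the gap was small beside the level: the log2 fold change was 0.13, with a 95% interval of -0.041 to 0.30 (limma adjusted p = 0.181). With no scaling between samples it was 0.17 with a limma adjusted p of 0.0492, and it ran from 0.058 without 2D replicate 1 to 0.19 without 2D replicate 2. Cacnb1, first known from skeletal muscle channels, had 7.002 and 7.010 TPM in 2D and 8.19 and 7.55 TPM in 3D, a log2 fold change of 0.11 with a 95% interval of -0.10 to 0.32 (limma adjusted p = 0.343), which ran from 0.047 without 3D replicate 1 to 0.17 without 3D replicate 2. Cacnb2, a beta subunit best known from heart, had 11.4 and 10.4 TPM in 2D and 10.4 and 12.8 TPM in 3D. Its groups overlapped, and the log2 fold change of 0.044 had a 95% interval of -0.21 to 0.30 (limma adjusted p = 0.751) and ran from -0.082 without 3D replicate 2 to 0.17 without 3D replicate 1.

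Both alpha-2/delta subunits rose. Cacna2d1, a target of gabapentin and the main member of its class here, had 25.6 and 17.9 TPM in 2D and 41.7 and 35.8 TPM in 3D. Its 2D samples were uneven, and both 3D samples lay above them. The means differed 1.78-fold and the log2 fold change was 0.78 (SE 0.15, limma adjusted p = 0.0156). Its adjusted p in limma was 0.0510 with no filter on low values, 0.110 without 3D replicate 1 and 0.0603 without 3D replicate 2. Cacna2d2, its close relative, was low, at 3.46 and 3.23 TPM in 2D and 5.70 and 5.02 TPM in 3D. Again the groups did not overlap, and the log2 fold change was 0.51 (SE 0.10, limma adjusted p = 0.0154, 0.05005 without 2D replicate 2, 0.110 without 3D replicate 1 and 0.0566 without 3D replicate 2).

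**Figure D2:**
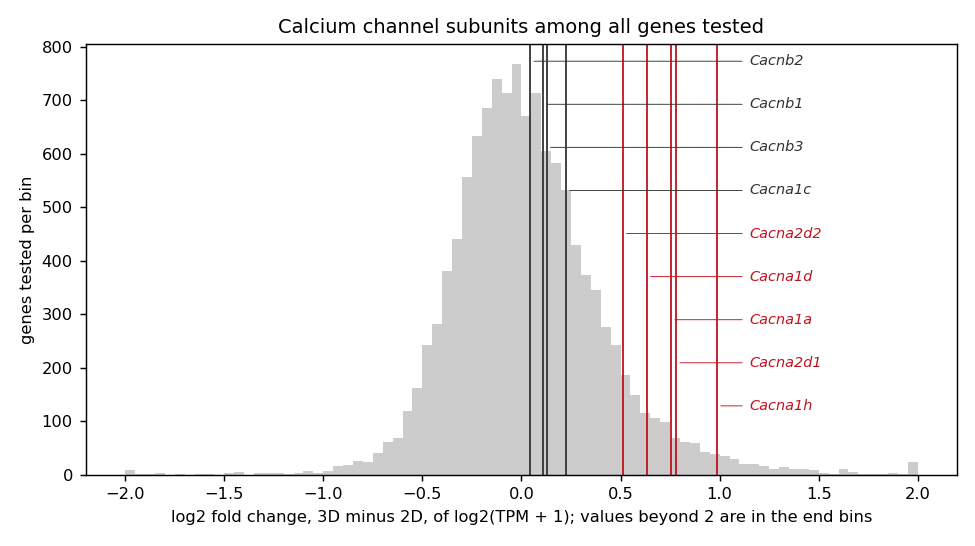
Histogram of the log2 fold change of 3D over 2D for all genes tested (number of genes per bin), with a line for each of the 9 tested subunits, red where higher in 3D at an adjusted p below 0.05. The lines lie between 0.044 for Cacnb2 and 0.99 for Cacna1h, on the positive side of a distribution whose median was -0.0031.

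Beyond the 10 genes, the remaining members of the channel family were examined by symbol. Cacna1i, a T-type gene, was not analysed here, as no row carried its symbol. Of the 15 others 8 were tested, of which 2 were higher in 3D and 2 were lower. These counts lie near those for all genes tested, of which 18.5% were higher and 19.5% were lower. At an unadjusted p below 0.05, 5 of the 8 passed, against 6057 of the 11960 genes tested. Cacna1b, the N-type pore, had 4.12 and 3.75 TPM in 2D and 6.23 and 5.38 TPM in 3D (log2 fold change 0.43, SE 0.10, limma adjusted p = 0.0270). Cacna2d3, another alpha-2/delta gene, stood in 2D at 0.817 and 0.835 TPM, and reached 2.25 and 2.13 TPM in 3D (log2 fold change 0.78, SE 0.12, limma adjusted p = 0.00900). It passed the filter on the mean only through its 3D samples. Cacna1g, the T-type partner of Cacna1h, had 6.69 and 6.51 TPM in 2D and 6.95 and 7.02 TPM in 3D, a log2 fold change of 0.033 with a 95% interval of -0.16 to 0.22 (limma adjusted p = 0.745).

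Of the 5 gamma genes tested 2 fell and 3 did not pass. Gamma genes encode membrane proteins related to the gamma subunit of the muscle calcium channel, and several of them, including Cacng2, Cacng4, Cacng7 and Cacng8, are known as auxiliary subunits of AMPA receptors. Cacng4 fell from 16.3 and 16.4 TPM in 2D to 11.4 and 11.9 TPM in 3D (log2 fold change -0.49, SE 0.068, limma adjusted p = 0.00681), and Cacng6 fell from 7.17 and 6.39 TPM to 4.40 and 4.75 TPM (log2 fold change -0.52, SE 0.086, limma adjusted p = 0.0103). Neither pair of groups overlapped. Cacng8 had 4.58 and 4.77 TPM in 2D and 2.48 and 3.87 TPM in 3D (limma adjusted p = 0.0655), Cacng2 11.6 and 12.0 TPM against 10.9 and 10.8 TPM (0.154), and Cacng7 31.6 and 32.5 TPM against 34.5 and 34.4 TPM (0.491). By class, 4 of 6 tested alpha-1 genes and 0 of 3 beta genes were higher in 3D, and 0 of 5 gamma genes were higher and 2 lower. Over all genes tested 18.5% were higher and 19.5% lower, and classes this small allow no class pattern to be read from the counts. Of the alpha-2/delta genes, Cacna2d1 and Cacna2d2 are the called ones that do not owe their place among the genes tested to the 3D samples. The calls among the 8 genes tested outside the list of 10 did not hold without 3D replicate 1. Fewer passed when any other sample was left out.

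**Figure D3:**
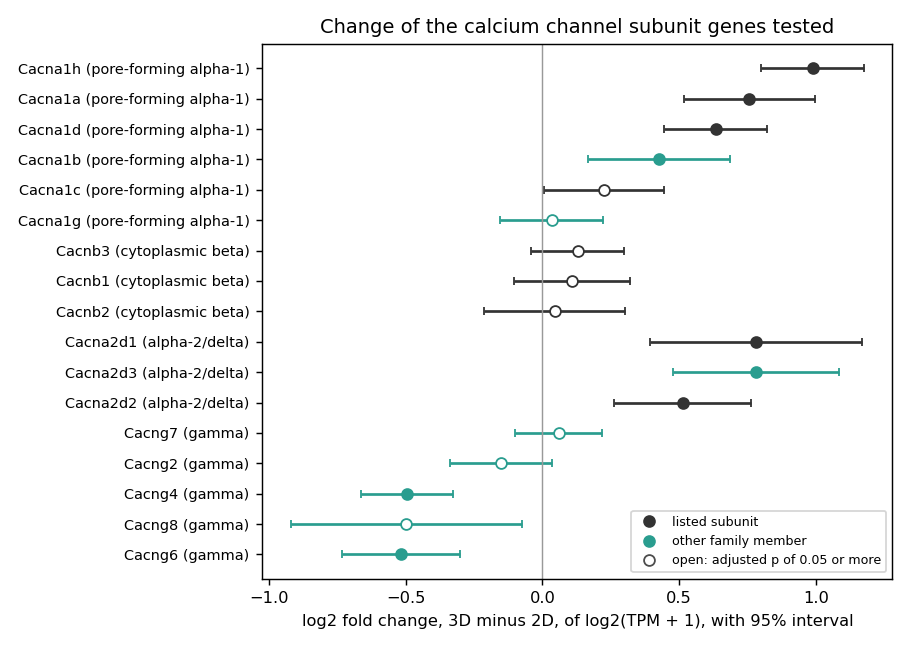
Log2 fold change of 3D over 2D with its 95% interval for the 17 tested genes of the calcium channel family, grouped by class, with filled points for an adjusted p below 0.05 and a second colour for genes outside the list of 10. Filled points lie above 0 among the alpha-1 and alpha-2/delta genes and below 0 for Cacng4 and Cacng6, and the intervals of the beta genes span 0.

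Summed by class, alpha-1 transcripts came to 66.4 and 61.3 TPM in 2D and 111 and 103 TPM in 3D, a ratio of means of 1.67. The alpha-2/delta sum was 30.1 and 22.2 TPM in 2D and 50.2 and 43.4 TPM in 3D, a ratio of 1.79. The gamma sum was lower in 3D, at 71.4 and 72.1 TPM in 2D and 63.9 and 65.8 TPM in 3D, a ratio of 0.90. The beta sum moved less than the alpha-1 and alpha-2/delta sums, from 163 and 168 TPM to 188 and 184 TPM, a ratio of 1.12. Beta transcripts per alpha-1 transcript were accordingly lower in 3D, at 1.69 and 1.80, than in 2D, at 2.45 and 2.74. Alpha-2/delta transcripts per alpha-1 transcript were 0.453 and 0.361 in 2D and 0.452 and 0.423 in 3D, and these groups overlapped.

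The mix of pores was compared as shares of the alpha-1 sum. Cacna1h made up 19.5% and 21.8% of alpha-1 TPM in 2D and 25.9% and 26.4% in 3D, while Cacna1g made up 10.1% and 10.6% in 2D and 6.26% and 6.84% in 3D. The ratio of Cacna1h to Cacna1g was therefore 1.94 and 2.06 in 2D and 4.14 and 3.87 in 3D, whereas the share of both T-type genes together, 29.6% and 32.4% in 2D and 32.1% and 33.3% in 3D, overlapped between the cultures. Among the L-type genes, Cacna1c made up 10.3% and 9.37% in 2D and 6.81% and 7.68% in 3D, and the ratio of Cacna1d to Cacna1c was 1.96 and 1.99 in 2D and 2.70 and 2.57 in 3D.
Cacna1a stayed the largest part, at 33.5% and 33.2% in 2D and 36.9% and 33.9% in 3D. The share of Cacna1d, 20.2% and 18.6% in 2D and 18.4% and 19.8% in 3D, overlapped. For each share without overlap the two-sided exact permutation p was 0.333, which is the smallest that 2 samples against 2 can give, and for Cacna1d it was 0.667. Within the beta class Cacnb3 held 88.5% and 89.5% in 2D and 89.9% and 88.8% in 3D, and within the alpha-2/delta class Cacna2d1 held 85.0% and 80.8% in 2D and 83.0% and 82.6% in 3D, with overlap in both classes.

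**Figure D4:**
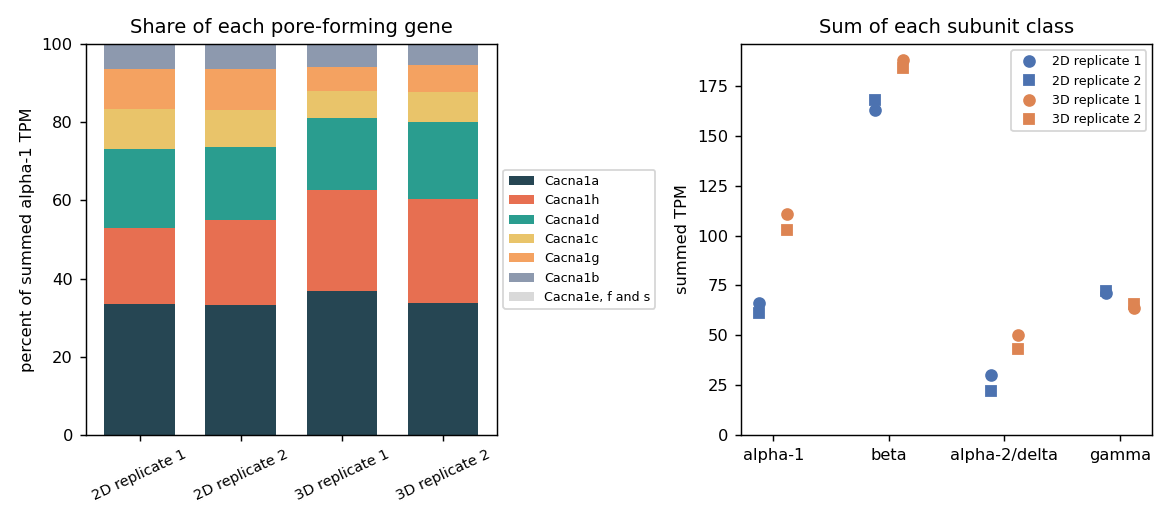
Percent of summed alpha-1 TPM taken by each pore-forming gene in each of the 4 samples (left) and summed TPM of each subunit class by sample (right). The band of Cacna1h is wider in 3D, at 25.9% and 26.4%, than in 2D, at 19.5% and 21.8%, and the bands of Cacna1g and Cacna1c are narrower.

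The rows of the files are transcripts, so a gene sum may hold several isoforms. The 10 genes had 23 listed transcripts, of which 3 were at 0 in all samples and 13 were tested. Of the 13, 5 were higher in 3D and 0 were lower at an adjusted p below 0.05. Of all 15020 transcripts tested, 10.8% were higher, and the share that was lower was not counted. The calls among the 13 did not hold without 2D replicate 2, without 3D replicate 1 or without 3D replicate 2. Cacna2d1 had 2 tested transcripts and both rose. ENSRNOT00000042914.4 went from 20.6 and 14.9 TPM to 31.7 and 27.6 TPM (log2 fold change 0.66, limma adjusted p = 0.0439), and ENSRNOT00000090240.1 from 4.92 and 2.99 TPM to 9.95 and 8.21 TPM (1.00, limma adjusted p = 0.0370). The lesser form made up 19.2% and 16.7% of the gene in 2D and 23.9% and 22.9% in 3D, without overlap.

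Cacna1d was carried mostly by ENSRNOT00000048459.4, at 12.0 and 10.3 TPM in 2D and 18.2 and 17.5 TPM in 3D (log2 fold change 0.58, limma adjusted p = 0.0202). The low form ENSRNOT00000047737.4 was also higher in both 3D samples, at 1.17 and 0.907 TPM in 2D and 1.66 and 2.08 TPM in 3D. Its log2 fold change of 0.46 did not pass (limma adjusted p = 0.116). Cacna1h and Cacna1a each had 1 listed transcript, ENSRNOT00000043626.3 (log2 fold change 0.97, limma adjusted p = 0.0159) and ENSRNOT00000083448.1 (0.74, limma adjusted p = 0.0202), whose values are those of the gene, so these 2 calls repeat the gene result. For Cacna2d2 the tested transcript ENSRNOT00000081242.1 had a log2 fold change of 0.39 and did not pass (limma adjusted p = 0.0580), although the gene sum did. That sum includes ENSRNOT00000021218.6, which was too low to be tested, at 0.284 and 0.173 TPM in 2D and 0.962 and 0.557 TPM in 3D. It made up 8.21% and 5.35% of the gene in 2D and 16.9% and 11.1% in 3D. The tested forms of Cacna1c, ENSRNOT00000051846.4 and ENSRNOT00000041571.5, had log2 fold changes of 0.11 and 0.28 with limma adjusted p of 0.407 and 0.383. ENSRNOT00000041571.5, at a mean of 0.859 TPM in 2D and 1.27 TPM in 3D, passed the filter only through its 3D samples. For the beta genes the values were 0.10 and 0.020 for ENSRNOT00000006098.5 and ENSRNOT00000082974.1 of Cacnb1, 0.027 for ENSRNOT00000031542.5 of Cacnb2 and 0.11 for ENSRNOT00000081206.1 of Cacnb3, with limma adjusted p from 0.287 to 0.943.

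**Figure D5:**
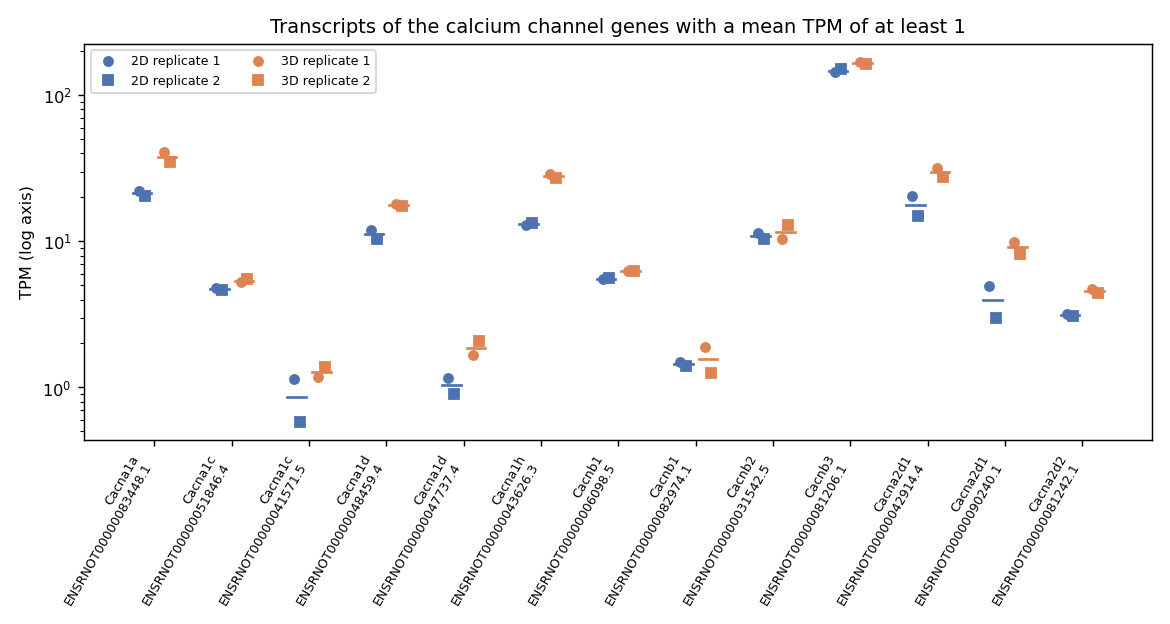
TPM of the 13 tested transcripts of the subunit genes in each sample, on a log axis, with points for the samples and lines for the group means. Both 3D points lie above both 2D points for all but ENSRNOT00000082974.1 of Cacnb1 and the Cacnb2 transcript. The gap is small for the Cacnb3 transcript.

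Proteins that bind or traffic the channels were read from a list of 21 symbols, 12 of which were tested. In 3D 5 were higher, against 18.5% of all genes tested, and 1 was lower, against 19.5%, Calm2 (calmodulin), named after its values were seen, with a log2 fold change of -0.23 (limma adjusted p = 0.0469). The median of the list was 0.28. Cbarp, a membrane protein that binds beta subunits and dampens channel activity, had 18.3 and 20.4 TPM in 2D and 38.7 and 36.9 TPM in 3D, a log2 fold change of 0.89 (SE 0.091, limma adjusted p = 0.00445). The small GTPases Gem and Rem2, which bind beta subunits and inhibit the current, also rose. Gem went from 15.0 and 14.6 TPM to 19.5 and 21.0 TPM (0.39, limma adjusted p = 0.0108) and Rem2 from 16.7 and 17.1 TPM to 22.6 and 21.1 TPM (0.31, limma adjusted p = 0.0276). Erc2, a scaffold of the active zone where channels gather, went from 3.37 and 2.69 TPM to 5.31 and 5.10 TPM (0.59, limma adjusted p = 0.0121). The calls among the 12 did not hold without 3D replicate 1, and fewer passed without 3D replicate 2 or without 2D replicate 2.

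Genes that act downstream of calcium entry formed a list of 18 symbols with 15 tested: calmodulin-dependent kinases, calcineurin subunits, the calcineurin regulator Rcan1 and NFAT transcription factors. Of the 15, 6 were higher and 1 was lower in 3D, against 18.5% and 19.5% of all genes tested, with a median of 0.22. Camk2d and Camk2a, subunits of calcium/calmodulin-dependent kinase II, rose, Camk2d from 5.68 and 4.86 TPM to 9.73 and 9.81 TPM (log2 fold change 0.75, limma adjusted p = 0.00501) and Camk2a from 1.95 and 1.83 TPM to 3.14 and 4.00 TPM (0.63, limma adjusted p = 0.0162). Camkk1, which phosphorylates the kinases of the Camk1 and Camk4 type, went from 8.81 and 8.53 TPM to 10.9 and 11.8 TPM (0.31, limma adjusted p = 0.0234). Camk1 was the one that fell, from 44.0 and 43.6 TPM to 28.2 and 30.2 TPM (-0.61, SE 0.061, limma adjusted p = 0.00424). Of the 15, fewer passed when any sample was left out, fewest without 3D replicate 1, and fewer of all genes passed too.

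Cacna1h had the largest log2 fold change among the subunits tested. The 5 genes whose centred log2(TPM + 1) profile over the 4 samples lay closest to it were Gpx3, Diras2, Idua, Ccdc153 and Nrbp2, at Euclidean distances from 0.0179 to 0.0535 and with log2 fold changes from 0.96 to 1.01. Over 4 samples this is a description of likeness alone.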

How the data were processed

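Poly-A RNA of 4 samples was sequenced from stranded libraries as single-end reads. By the authors' description, transcripts were quantified with Salmon 1.2 using rn4, to which human insulin had been added. Whether the transcript names belong to that build was not tested. TPM were deposited per transcript, with a decimal comma and a total of 1000000 per sample. TPM keep no depth, so precision is that of 2 samples per group and no counting interval is given. Groups and replicate numbers came from the labels.

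TPM were summed per gene symbol. The filter was a mean TPM of 1 or more. Scaling used a trimmed mean of M values with no weights, trimming 30% (M) and 5% (A) at either end, and log2(TPM + 1) was tested in limma 3.58.1 (R 4.3.3, empirical Bayes with trend). P-values were adjusted by Benjamini-Hochberg over all features and called below 0.05. TPM printed are as deposited. Transcripts were tested alike. The steps were also run on simulated data in which few features changed, so that run gives no error rate for these data. Reads shared by near-identical transcripts may be split by the estimate.

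Named genes are the 10 subunits, the other subunits with a mean TPM of at least 1, at most 4 called genes of smallest p in each list, tested transcripts, and the 5 nearest profiles. Calm2 was named outside this rule, after its values were seen. The subunits and lists were chosen with earlier results of these data known. Upstream windows came from RefSeq, build GRCr8, which was otherwise used for names. No sequence of the authors' build was used here. Alternatives changed the scaling, filter, pseudocount, variance model, threshold, replicate block and samples.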

Additional observations from a re-analysis of the deposited data

How the results depend on the processing

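Each culture was left out in turn, which leaves 1 sample in a group that limma assumes to vary like the other group. Called counts then ranged from 136 to 4515 for all genes (1037 without 3D replicate 2), 0 to 5 for the 9 tested subunits, 0 to 3 for the other channel subunits, 0 to 6 for channel regulators, 1 to 5 for calcium effectors, 0 to 3 for extrusion genes, 0 to 2 for sodium channels and 0 to 5 for subunit transcripts. The log2 fold change of Cacnb2 ran from -0.0819 to 0.173 and was negative without 3D replicate 2. The share of Cacna1d changed by -1.11 to 0.437 percentage points, positive without 2D replicate 1 or 3D replicate 1 (0.351). Without 3D replicate 1, 77.2% of calls were higher in 3D, against 48.7% with all samples, 55.5% with no scaling and 54.7% with upper quartile scaling. The cause was not tested.

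At an adjusted p below 0.01, limma called 1418 genes, 3 subunits, 2 other channel subunits, 1 regulator, 2 effectors, 1 extrusion gene, 0 sodium channels and 0 subunit transcripts. With no filter on low values it called 3 of 18 regulators and 3 of 17 effectors. It also called 1 of 8 extrusion genes and 1 of 10 sodium channels, against 3739 of all 16749 genes tested then. With a mean TPM of at least 5, which tests fewer genes, it called 2 of 5 other channel subunits, against 4104 of 9498 genes. Samples with the same replicate number did not deviate together (r = -0.006 across 11960 genes), and the replicate block called 4814 genes and the same number of subunits, 5. Over the fits of single subunits under other settings, 87 kept direction and side of the threshold, 9 lost the call, 1 gained it and 1 reversed. Effects smaller than the spread of 2 cultures were not detectable.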

Other observations

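Calcium pumps and sodium/calcium exchangers were also read, as a list of 8 genes, of which Slc8b1 is the mitochondrial exchanger and the others act at the plasma membrane. In 3D 2 of the 8 were higher and 0 were lower, near the 18.5% of all genes tested that were higher, with a median log2 fold change of 0.097. Atp2b1, a calcium pump, stood at 55.9 and 46.8 TPM in 2D and at 77.6 and 74.2 TPM in 3D (log2 fold change 0.52, limma adjusted p = 0.00871). Slc8a2, a sodium/calcium exchanger, had 42.1 and 35.9 TPM in 2D and 56.5 and 50.2 TPM in 3D (0.40, limma adjusted p = 0.0214). The calls among the 8 did not hold without 3D replicate 1 or without 3D replicate 2, and fewer passed without 2D replicate 2.

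Voltage-gated sodium channel subunits are the family closest in structure to the alpha-1 genes and carry the fast upstroke of the action potential. Of 13 listed, 3 were at 0 in all samples and 5 were tested, of which 3 were higher in 3D and 0 were lower, against 18.5% and 19.5% of all genes tested, with a median of 0.46. Scn3a, a pore of beta-cell sodium current in rodents, had 26.5 and 20.3 TPM in 2D and 36.8 and 35.5 TPM in 3D (log2 fold change 0.58, limma adjusted p = 0.0133). Scn8a had 4.61 and 3.24 TPM against 5.99 and 6.29 TPM (0.51, limma adjusted p = 0.0320). The auxiliary subunit Scn3b had 32.7 and 31.7 TPM against 37.6 and 41.9 TPM (0.25, limma adjusted p = 0.0347). The calls among the 5 did not hold without 3D replicate 1 or without 3D replicate 2. Fewer passed without 2D replicate 1 or without 2D replicate 2.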
